A study of Homo sapiens with 12 samples.

Results

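The collagen genes are the human genes that encode the alpha chains of collagen, and binding of the nuclear receptor PPARγ around 43 of them was described here, of 19974 protein-coding genes on chromosomes 1 to 22 and X. Members were the protein-coding genes whose symbol is COL, a number, A and a number, with COL17A1 left out. A chromatin immunoprecipitation (ChIP) peak was assigned to a gene when its summit lay within 50 kb of the gene span in the hg38 build. A peak from the pooled libraries of a group was called reproducible when it was overlapped by at least 1 bp in both single-library lists of that group. The windows held 111 of the 25164 pooled wild-type peaks and 11 of the 2846 pooled peaks of the mutant. The genes were chosen by symbol with the number and fold of these pooled peaks and their recurrence known, so counts of peaks around them are given as a description.

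The study placed PPARγ in MCF10A-NeuT cells, a line of human mammary epithelium transformed by NeuT, an activated form of the rat Erbb2 gene. The cells had been infected with a retrovirus and stably expressed either wild-type PPARγ or the mutant K154/155Q, in which 2 neighbouring lysines were replaced by glutamine (KQ). Each group had 2 ChIP libraries, and these 4 libraries of the 12 in the series were used, while the input libraries and the empty-vector libraries were not analysed here. The sources differ on the pull-down, since the sample fields name a PPARγ antibody and the series text names the Flag tag. Receptor from the cells' own gene, which both groups carry, could have been pulled down with the former. Binding data hold no marker expression, so the labelled cell type could not be checked against marker genes. The labels do not say whether the libraries came from separate cultures, so their spread may be technical.

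Collagens are trimeric proteins of the extracellular matrix, in which alpha chains wind into a triple helix. Fibrillar collagens such as types I and III give tissue its tensile strength, and type IV forms the sheet-like network of the basement membrane on which mammary epithelium rests. Fibril-associated collagens decorate the surface of fibrils, and transmembrane collagens sit in the plasma membrane. PPARγ binds DNA together with a retinoid X receptor (RXR), typically at a direct repeat of the hexamer AGGTCA with a single base between the copies.

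The sequences shown are those of start regions at which the peak lists could be read against the DNA. COL4A1 and COL4A2, which encode the most widespread chains of type IV collagen, lie head to head on chromosome 13 and start 127 bp apart. The DNA between their starts (chr13:110307158-110307283, plus strand, RefSeq, GRCh38.p14, the same assembly as hg38) is shown because the densest group of collagen peaks lies around it, while no peak of any of the 6 lists covers it. The capitals mark a CCAAT box and a GC box (GGGCGG).
COL4A1/COL4A2: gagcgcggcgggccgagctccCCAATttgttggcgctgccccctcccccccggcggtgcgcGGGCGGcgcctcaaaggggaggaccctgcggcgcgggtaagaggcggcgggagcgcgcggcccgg
Both motifs were searched on both strands. In the 126 bases before the start of all 22156 listed coding-gene windows, CCAAT was found in 22.5% and GGGCGG in 44.5%. The 126 bases hold no AGGTCA, and a match to AGGTCANAGGTCA needs at least 5 mismatches.

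COL7A1, which encodes the chain of the anchoring fibrils that tie the epidermal basement membrane to the dermis, is shown because its start region holds the closest match to the PPARγ repeat among the collagens. The 250 bases upstream of its start (chr3:48595330-48595579, minus strand) follow, with the match in capitals.
COL7A1: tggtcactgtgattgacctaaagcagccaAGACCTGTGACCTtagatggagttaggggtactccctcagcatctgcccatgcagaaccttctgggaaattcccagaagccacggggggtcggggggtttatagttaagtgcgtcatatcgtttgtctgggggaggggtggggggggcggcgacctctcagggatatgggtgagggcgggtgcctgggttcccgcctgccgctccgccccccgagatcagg
Promoter windows of 300 bases, from 250 before to 50 after a start, were listed for 31 of the 43 collagen genes, in 43 windows. With up to 2 mismatches, AGGTCANAGGTCA was found on either strand in 3 of these 43 windows (6.98%) and in 569 of the 22156 windows of all coding genes (2.57%). With at most 1 mismatch it was found in 1 collagen window (2.33%) and in 0.316% of all windows. The hexamer AGGTCA alone went the other way, in 1 collagen window (2.33%) and in 11.9% of all windows. The collagen shares rest on 3 or fewer windows, so no enrichment is shown. The 3 matches are written below along the strand of the repeat, with the bases that match it in capitals and positions counted from 1 at the 5′ end.
COL7A1: AGGTCAcAGGTCt
COL9A2: AGGTgAcAGcTCA
COL11A2: AGGgCAgAGGcCA
The COL7A1 match (chr3:48595538-48595550, plus strand) differs from the repeat by A13T and lies 215 bp from the start. A pooled wild-type peak (chr3:48595579-48595872, fold 3.84) began 28 bp beyond this match, with its summit 466 bp from the start, but it was called in neither wild-type library alone. The COL9A2 match (chr1:40317343-40317355, minus strand) differs by C5G and G10C, and the gene had 0 pooled peaks in either group. The COL11A2 match (chr6:33190568-33190580, plus strand) differs by T4G and T11C, and no peak of the pooled lists covered it. A match describes letters in these windows and does not show a site.

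Peak lists give for each peak the authors' fold enrichment and −log10 of its q-value. The fold is a ratio of ChIP tags at the summit to the caller's background, with 1 added to each. The tags behind each summit were recovered from fold and p. A whole number of tags gave −log10 p to within 0.01 for 100% of the peaks of every list. With wild type the median summit rested on 15 tags in library 1 and 8 in library 2. With KQ it rested on 17 and 16. The lists held 18143 and 17859 peaks with wild type and 1263 and 1035 with KQ.

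Collagen windows held more peaks in both wild-type libraries than in both KQ libraries, while the difference in their share of each library was smaller than the spread between the KQ libraries. Collagen windows held 80 and 78 peaks of the wild-type libraries, and 9 and 4 of the KQ libraries. The groups did not overlap, with means of 79.0 ± 1.41 (SD, n = 2) and 6.50 ± 3.54 (SD, n = 2), a ratio of 12.2 (exact permutation test over libraries, two-sided, p = 0.333, the smallest value that 2 against 2 allows). Without KQ library 1 the ratio was 19.8. As a share of all peaks of the library, collagen windows took 0.441% and 0.437% with wild type, and 0.713% and 0.386% with KQ. The wild-type libraries lay between the KQ libraries, and the difference of means was -0.11 percentage points (exact permutation test, two-sided, p = 1). It turned to 0.052 points without KQ library 1. The plot of peaks by library shows both measures.

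**Figure D1:**
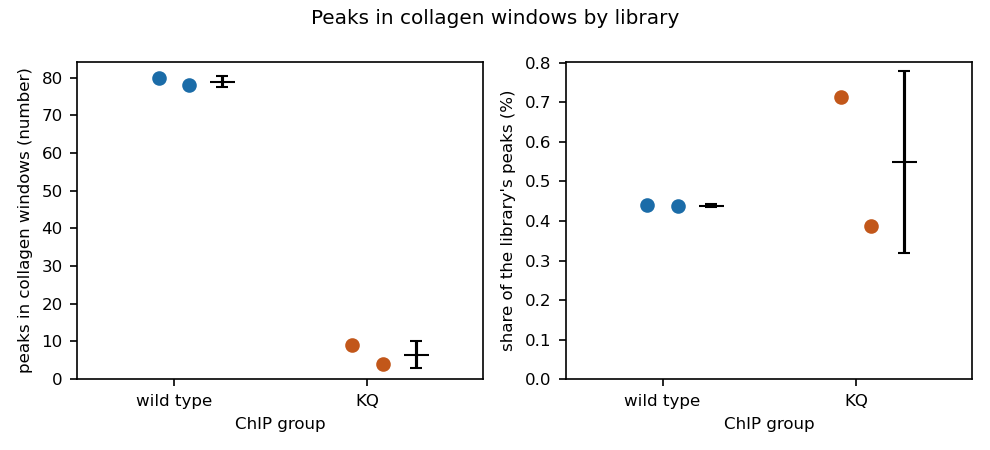
Peaks with a summit in collagen windows, as a number (left panel) and as a percentage of the peaks of the library (right panel), for the wild-type and KQ libraries. Points are libraries, and the dash with whiskers is the mean ± SD of 2 libraries. The counts separate (80 and 78 against 9 and 4), while the shares of wild type (0.441% and 0.437%) lie between those of KQ (0.713% and 0.386%).

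A reproducible wild-type peak lay within 50 kb of 20 of the 43 collagen genes (46.5%). Among all protein-coding genes the share was 37.7%. The collagen genes are long, with a median span of 150.2 kb against 24.2 kb for all coding genes, which widens their windows. Of the 26 collagen genes with a span of 100 kb or more, 11 had such a peak (42.3%), against 54.5% of all 3351 coding genes of that length. Of the 17 shorter ones, 9 had one (52.9%), against 34.4% of the shorter coding genes. The collagens lay below the background among long genes and above it among shorter genes, within counting error in both. The exact binomial interval was 23.4 to 63.1% for the long collagens and 27.8 to 77.0% for the shorter ones. Each interval held its background share, so a dependence on length is not shown. Neighbouring genes such as COL4A1 and COL4A2 can count the same peak, so these shares are a description.

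Any pooled wild-type peak was found at 33 of the 43 genes (76.7%), where 67.1% of all coding genes had one. A reproducible KQ peak was found at 2 genes (4.65%) against 2.68% of all, and any pooled KQ peak at 8 genes (18.6%) against 16.4% of all. At 27 of the 43 genes (62.8%) both wild-type libraries had more peaks than both KQ libraries, where the share over all coding genes was 44.4%. Among genes of 100 kb or more these shares were 69.2% for the collagens and 64.0% for all. No collagen gene had more peaks in both KQ libraries than in both wild-type libraries, as was the case for 0.025% of all coding genes.

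**Figure D2:**
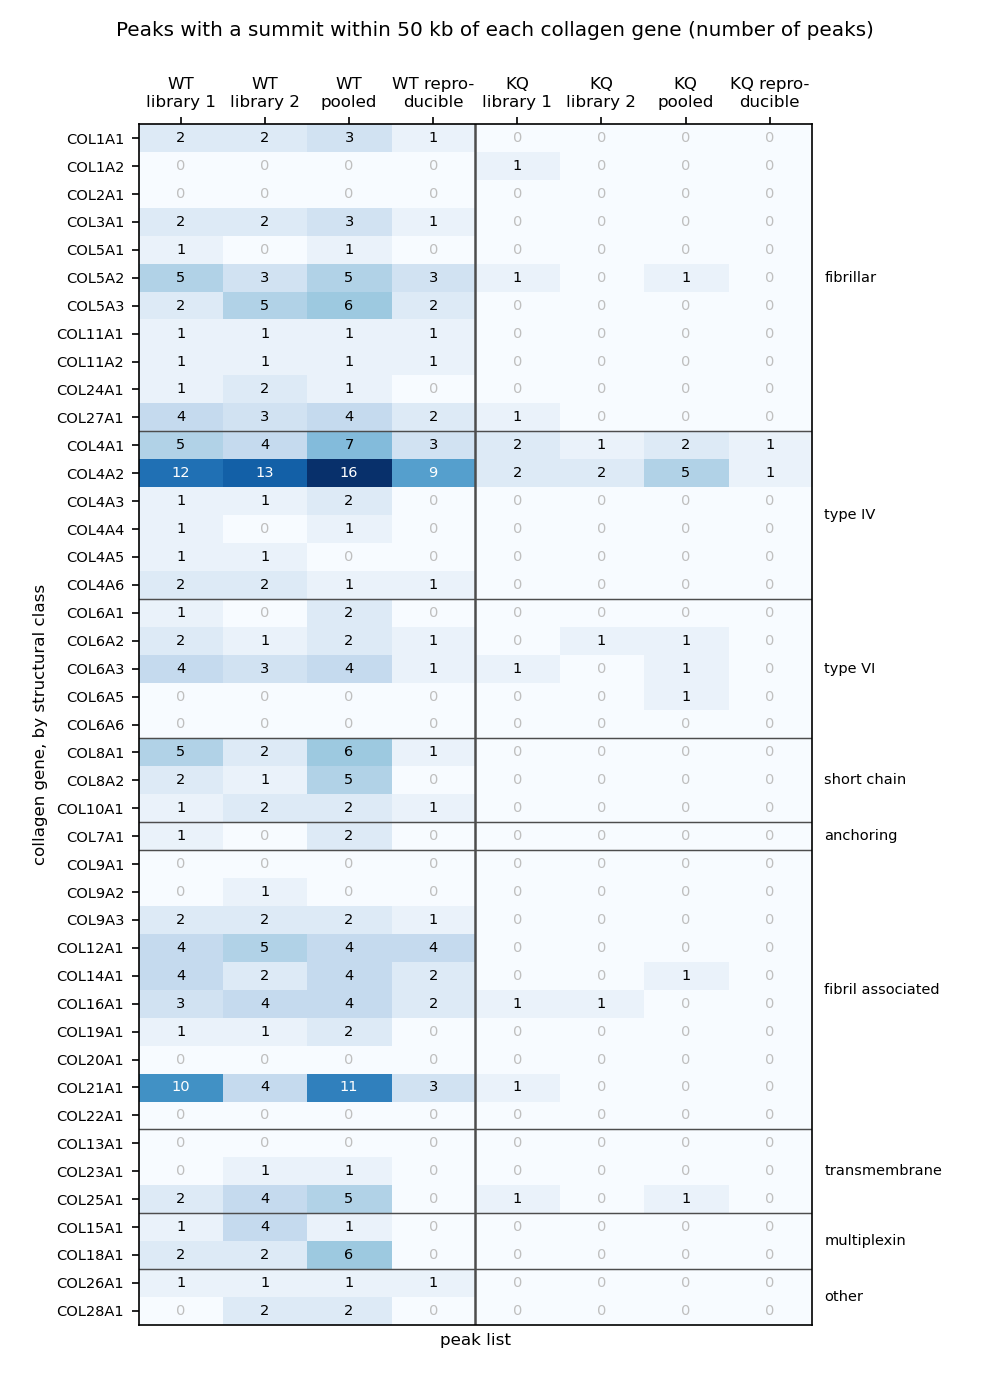
Number of peaks with a summit within 50 kb of each of the 43 collagen genes (rows, by structural class) in the 4 libraries, the 2 pooled lists and the reproducible part of each (columns). Darker cells hold more peaks. COL4A2 leads with 16 pooled and 9 reproducible wild-type peaks, followed by COL21A1 with 11 pooled peaks, and the KQ columns are mostly 0.

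The type IV genes COL4A1 and COL4A2 held the densest binding. Their joined windows of 0.464 Mb had 19 pooled peaks with wild type, of which 10 recurred in both libraries, and 14 peaks in each wild-type library against 2 in each KQ library. That is 21.5 reproducible wild-type peaks per Mb (exact Poisson 95% interval 10.3 to 39.6), where the union of all collagen windows had 3.57 and the windows of all coding genes had 3.31. Without this pair of genes the other 41 collagens had 2.75 per Mb (1.83 to 3.97). COL4A2 alone had 9 reproducible wild-type peaks, a number reached by 11 coding genes (0.0551%), itself included. Gene lengths were not matched in this ranking, and COL4A2 spans 205.9 kb against a median of 24.2 kb for all coding genes. The 9 include peaks inside COL4A1 and RAB20. The intervals cover counting error only, and peaks of 1 locus are not independent.

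The strongest wild-type peak of any collagen window lay inside COL4A2, 5.87 kb from its end (chr13:110507162-110507462), where the noncoding gene COL4A2-AS1 is also annotated. Its fold was 19.6 in the pooled list, on 55 tags over a background of 1.85. The single wild-type libraries gave 17.8 on 42 tags (library 1) and 9.89 on 14 tags (library 2). No KQ list had a peak there. Of all 8033 reproducible wild-type peaks, 182 (2.27%) had at least this fold.

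Next to it in strength within the locus was a peak inside COL4A1, 29.4 kb from the shared start region (chr13:110277586-110277922). Its wild-type fold was 14.2 on 42 tags, with 9.89 in library 1 and 9.53 in library 2. The KQ peak at this site (chr13:110277680-110277982) was the only reproducible KQ peak in any collagen window. Its fold was 8.44 on 48 tags over a background of 4.80, with 9.32 in KQ library 1 and 5.65 in KQ library 2. The KQ summit held 48 tags and the wild-type summit 42, and the caller's background was 4.80 in the KQ list and 2.02 in the wild-type list. This peak lies within 50 kb of both genes, so both count as having a reproducible KQ peak.

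Downstream of COL4A2 a run of peaks extended into RAB20, a neighbouring gene for a small GTPase. The peak 15.4 kb beyond COL4A2 (chr13:110528445-110528751) had a wild-type fold of 13.9, with 12.9 and 7.38 in the libraries, and overlapped a pooled KQ peak of fold 8.66 that was called in KQ library 2 alone. The peak 46.3 kb beyond COL4A2 (chr13:110559408-110559664), also inside RAB20, had a wild-type fold of 12.8, with 9.89 and 7.44 in the libraries, and no KQ peak. Peaks nearer to RAB20 are counted here by the 50 kb rule and are not thereby peaks of COL4A2.

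The peak closest to the shared start of COL4A1 and COL4A2 lay 2.80 kb inside COL4A1 (chr13:110304263-110304490), with a wild-type fold of 10.7 on 35 tags, 5.77 and 8.07 in the libraries, and no KQ peak. A peak in the middle of COL4A2 (chr13:110412116-110412507) had a fold of 9.58 on 54 tags, and a pooled KQ peak of fold 4.22 overlapped it that was called in neither KQ library. The remaining reproducible peaks of the locus had wild-type folds of 8.14, 7.36, 6.37 and 5.24. In the map of the locus, all 5 pooled KQ peaks lie on a pooled wild-type peak.

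**Figure D3:**
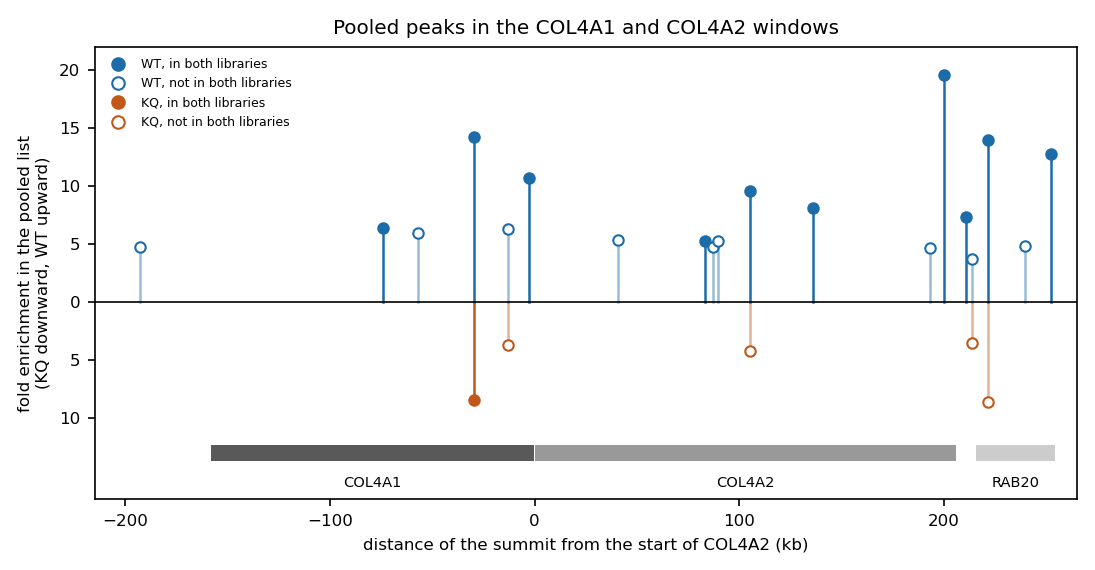
Pooled peaks in the windows of COL4A1 and COL4A2, placed by the distance of the summit from the start of COL4A2 in kb. Height is the authors' fold enrichment, upward for the 19 wild-type peaks and downward for the 5 KQ peaks, filled where the peak was called in both libraries of its group, and bars at the bottom show the gene spans. The highest wild-type peak (fold 19.6) has no KQ peak, and the single filled KQ peak (8.44) lies at the wild-type peak of fold 14.2.

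The other type IV genes, which also lie head to head in pairs, had few peaks. COL4A3 and COL4A4, whose chains form the network of the kidney glomerulus, start 136 bp apart, and their joined windows of 0.447 Mb had 2 pooled wild-type peaks, of which 0 were reproducible. COL4A5 and COL4A6 on the X chromosome start 380 bp apart and had 1 pooled wild-type peak in 0.642 Mb. That peak lay inside COL4A6 (chrX:108275446-108275713, fold 7.39) and was reproducible. Neither pair had a KQ peak in any list.

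Among the 11 fibrillar genes 7 had a reproducible wild-type peak, where the share over all coding genes was 37.7%. Gene lengths were not matched in this or the other class counts. The 10 reproducible fibrillar peaks had a median fold of 7.96, and none of them overlapped a pooled KQ peak. The highest fold, 16.5 on 29 tags, belonged to a peak 43.7 kb outside COL27A1 (chr9:114110245-114110569), a long fibrillar chain of cartilage, and nearer to KIF12. The single wild-type lists gave 12.5 and 5.72, and KQ library 1 had a peak of fold 4.85 there. Another peak inside COL27A1 (chr9:114277475-114277792) had a fold of 9.13 and no KQ peak. COL5A3, a chain of type V collagen, had a peak of fold 11.4 located 3.76 kb outside the gene and inside RDH8 (chr19:10014094-10014424), with 7.79 and 8.74 in the libraries.

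COL1A1, COL1A2, COL2A1 and COL3A1 had few wild-type peaks, all of fold under 9. COL1A1, the main chain of type I collagen, had 1 reproducible wild-type peak of fold 7.42, which lay 39.1 kb away inside PPP1R9B (chr17:50144923-50145160). COL1A2, its partner chain, had no pooled peak, and its window held 1 peak of KQ library 1 alone. COL2A1, the collagen of cartilage, had no peak in any list. COL3A1 and COL5A2 are neighbours on chromosome 2 and shared a peak of fold 7.85 located 9.44 kb outside COL3A1 (chr2:189021974-189022313). COL5A2 had a further 2 reproducible peaks inside its span, of fold 8.06 and 7.21. Its total of 3 equalled that of COL4A1 and of COL21A1. At least 3 were found at 5.15% of all coding genes, with gene lengths not matched.

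COL11A1, a minor chain of cartilage fibrils, had a reproducible peak of fold 8.69 located 41.3 kb from the gene. The peak of COL11A2, its partner chain, had a fold of 6.69 on 48 tags and lay inside RXRB (chr6:33200710-33200970), the gene for a retinoid X receptor, 7.33 kb outside COL11A2. COL5A1 and COL24A1 each had a single pooled wild-type peak, of fold 7.61 and 9.30, that was called in library 1 but not in library 2.

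The 10 fibril-associated genes held 27 pooled wild-type peaks. Of these 12 were reproducible, at 5 of the genes, where 37.7% of all coding genes had a reproducible one. COL16A1, whose product joins fibrils in several tissues, had the strongest (chr1:31676214-31676480), with a fold of 16.0 on 36 tags. Its folds of 11.5 and 12.4 in the libraries were close together, and no KQ list had a peak there. A further COL16A1 peak 2.79 kb from the start of the gene (chr1:31701113-31701624) had a fold of 7.12, and KQ library 2 had a peak of fold 4.24 at it. A pooled wild-type peak at 783 bp from the start (chr1:31704721-31704893, fold 6.53) was called in library 1 alone.

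COL12A1, a fibril-associated chain of dense connective tissue, had 4 pooled peaks with wild type that all recurred, while the single wild-type lists held 4 and 5 and the single KQ lists 0. Its folds were 11.8, 9.15, 7.40 and 6.73. The strongest lay inside the gene, 14.6 kb from its end (chr6:75098782-75099065), on 48 tags, with folds of 7.77 and 8.44 in the libraries. Others lay 2.11 kb inside the gene from its start (chr6:75203856-75204042) and 6.07 kb upstream of it (chr6:75211956-75212321). At least 4 reproducible wild-type peaks were found at 2.09% of all coding genes, with gene lengths not matched.

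COL21A1, a fibril-associated chain, had most of its peaks in a single library. Wild-type library 1 had 10 peaks in its window and library 2 had 4, and 3 of the 11 pooled peaks were reproducible. KQ library 1 had 1 peak there, of fold 4.63, at a wild-type peak that did not recur. All 3 lay inside the gene. The strongest (chr6:56370619-56370847) had a fold of 11.3, with 8.85 and 10.02 in the libraries. The next (chr6:56072933-56073200) had a fold of 10.7, with 6.29 and 6.99 in the libraries, and the last had a fold of 7.28. COL14A1 had 2 reproducible peaks, of fold 7.17 and 5.86, and COL9A3 had 1 of fold 8.12, which lay 42.9 kb outside and nearer to NTSR1. COL19A1 had 2 pooled peaks of fold 6.56 and 5.04 and 0 reproducible ones.

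Type VI genes, which encode the beaded filaments around cells, had 2 reproducible wild-type peaks in 5 genes. The peak upstream of COL6A2 (chr21:46060713-46061146, 37.3 kb outside) had a wild-type fold of 7.87 on 38 tags, and the overlapping pooled KQ peak had a fold of 3.58 on 37 tags and was called in KQ library 2. COL6A1, the partner chain of COL6A2, had 2 pooled wild-type peaks, of fold 5.80 and 5.53, and neither recurred. The COL6A3 peak (fold 7.67) lay 45.8 kb outside and nearer to MLPH. Of the short chain network genes, COL10A1, the collagen of growth plate cartilage, had a reproducible peak of fold 11.0 that lay inside FRK, 18.5 kb outside the collagen gene (chr6:116100217-116100584), with 9.94 and 7.85 in the libraries. COL8A1 had 6 pooled wild-type peaks, of which 1 recurred with a fold of 8.14 (chr3:99721107-99721302), and COL8A2 had 5 of which 0 recurred.

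No reproducible peak of either group was found at the anchoring fibril gene COL7A1 or at any of the 3 transmembrane and 2 multiplexin genes. Of all coding genes, 37.7% had a reproducible wild-type peak and 2.68% a reproducible KQ peak, so these few genes show no class difference. The transmembrane gene COL25A1 had 5 pooled wild-type peaks. A single site (fold 8.69 with wild type, 6.33 with KQ, chr4:109072649-109072899 in the KQ list) was called in wild-type library 2 and KQ library 1 and in neither of the others. COL18A1, whose C-terminal fragment is endostatin, had 6 pooled wild-type peaks and 2 peaks in each wild-type library, and COL15A1, the other multiplexin, had 1 pooled peak of fold 5.31. COL23A1, a transmembrane collagen, had 1 pooled peak of fold 3.86, and COL28A1 had 2, of fold 5.96 and 5.38. COL26A1 had 1 reproducible peak inside the gene (chr7:101518422-101518608, fold 10.1 on 17 tags, 4.72 and 5.24 in the libraries), the smallest number of tags among the reproducible collagen peaks.

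No pooled wild-type peak was found at 10 of the 43 genes. COL2A1, COL6A6, COL9A1, COL13A1, COL20A1 and COL22A1 had no peak in any of the 6 lists. COL1A2 had a peak in KQ library 1 only, COL9A2 in wild-type library 2 only and COL6A5 in the pooled KQ list only, while COL4A5 had 1 peak in each wild-type library.

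The reproducible wild-type peaks in collagen windows had a lower median fold than the whole reproducible list. Their folds ran from 5.24 to 19.6 with a median of 8.13, where the median over all 8033 reproducible wild-type peaks was 9.03. Their median tags were 28.5 against 30.0. Over all pooled wild-type peaks the direction turned, with a median fold of 6.46 in collagen windows against 6.14 in the whole list and median tags of 19 against 18. By class the median fold was 9.58 for type IV, 7.96 for fibrillar and 7.76 for fibril-associated genes. Recurrence in both libraries was also near the whole list, at 34.2% of the 111 pooled collagen peaks (exact 95% interval 25.5 to 43.8) against 31.9%.

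**Figure D4:**
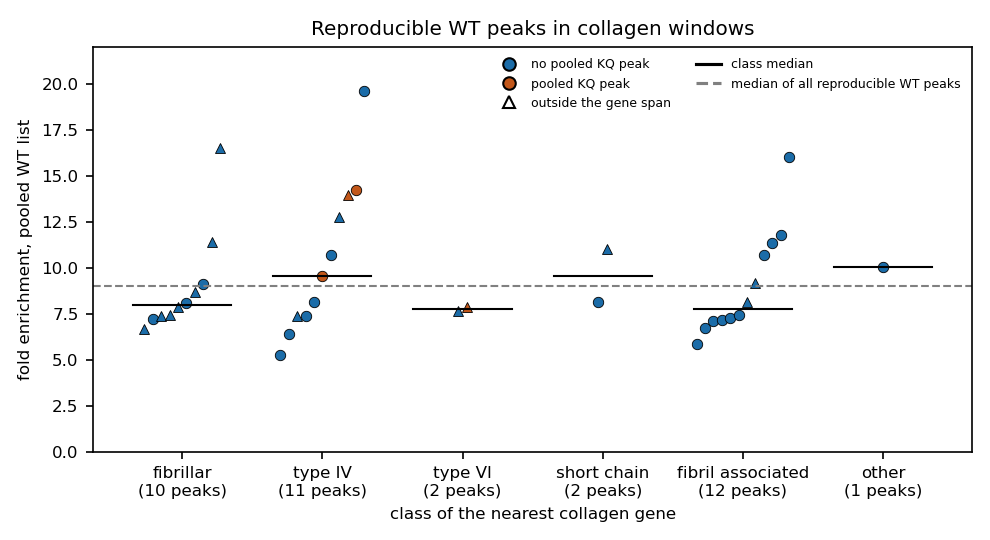
Fold enrichment, from the authors' pooled wild-type list, for 38 recurring peaks in collagen windows, by the class of the nearest collagen gene. Circles lie inside the gene and triangles outside, orange marks an overlapping pooled KQ peak, solid lines are class medians and the dashed line is the median of all reproducible wild-type peaks (9.03). The 4 orange points lie in type IV (3) and type VI (1).

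Of the 38 reproducible wild-type peaks in collagen windows, 4 overlapped a pooled KQ peak (10.5%, exact 95% interval 2.94 to 24.8), where 20.1% of all reproducible wild-type peaks did. The share was 5.26% when the list of KQ library 1 alone was used, that is without KQ library 2. It was 3.57% (1 of 28) without the COL4A1 and COL4A2 windows and 17.4% (4 of 23) at −log10 q of at least 5. The 3 sites in the COL4A1 and COL4A2 windows and the COL6A2 site made up the 4. Their median fold was 11.8 against 8.09 for the 34 others, a difference of 0.54 on the log2 scale. Over all reproducible wild-type peaks the median was likewise higher with a KQ overlap, 10.8 against 8.74. The collagen difference became -0.034 without the COL4A1 and COL4A2 windows, where 1 overlapped peak is left.

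Of the 11 pooled KQ peaks in collagen windows 8 overlapped a pooled wild-type peak (72.7%), against 80.4% of all pooled KQ peaks. The other 3 overlapped no peak of any wild-type list. The peak at COL6A5 (chr3:130340898-130341061) had a fold of 5.48 on 12 tags and was called in neither KQ library. The peak at COL6A3 (chr2:237291095-237291286), 32.8 kb outside, had a fold of 5.24 and was called in KQ library 1 with 5.35. A pooled wild-type peak of fold 6.53 lay close by (chr2:237291523-237291686) and was called in wild-type library 1 alone. The peak at COL14A1 (chr8:120287242-120287405) had a fold of 3.30 on 19 tags and was called in neither library. It lay directly beside a reproducible wild-type peak of fold 7.17 (chr8:120287016-120287222). The median fold of the 11 peaks was 4.22, below the 4.82 of the whole pooled KQ list.

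No reproducible peak of either group had its summit within 1 kb of an end of a collagen gene, and 2 pooled wild-type peaks did, at COL16A1 and COL7A1. The share over all coding genes is not given beside these counts, so they are a description only. Of the 38 reproducible wild-type peaks, 23 lay inside a collagen gene (60.5%). Over all reproducible wild-type peaks in coding-gene windows, 65.1% lay inside any coding gene. That is a wider measure, since the collagen share leaves out peaks inside other coding genes, so the shares are not like for like. Of the 15 outside, 6 lay inside another protein-coding gene and 5 had the collagen as nearest coding gene. The outermost reproducible summit counted lay 46.3 kb from COL4A2 (fold 12.8), and the first one left out lay 50.003 kb from COL16A1 (fold 9.89).

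Genes of collagen assembly and turnover were described from 4 lists of 47 genes, of which 24 (51.1%) had a reproducible wild-type peak and 1 (2.13%) a reproducible KQ peak, against 37.7% and 2.68% of all coding genes. Their lengths were not matched. Among prolyl and lysyl modification genes 9 of 17 had a wild-type peak. PLOD2, a lysyl hydroxylase that prepares cross-links, had the highest fold of that list, 16.4 on 52 tags at 2.24 kb outside the gene (chr3:146067051-146067406), and the overlapping KQ peak of fold 6.90 (chr3:146067040-146067294) was the single reproducible KQ peak of the 4 lists. Among propeptide processing and cross-linking genes 8 of 14 had a wild-type peak, with the highest fold at ADAMTS3 (fold 14.7), a procollagen N-proteinase.

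Of the 9 collagen receptor genes 6 had a reproducible wild-type peak. ITGA1, the integrin subunit that binds type IV collagen, had the highest fold, 18.1 on 39 tags inside the gene (chr5:52794595-52794941), with no pooled KQ peak. PELO and PELO-AS1 are also annotated at this site. ITGA2, a further integrin subunit for collagen, had 2 peaks of fold 9.65 and 6.01, and DDR2, a receptor tyrosine kinase for fibrillar collagen, had 2 of fold 8.63 and 7.90. The ITGA2 peak of fold 9.65 and both DDR2 peaks overlapped a pooled KQ peak. Of the 7 proteases that cleave collagen 1 had such a peak, MMP13 (fold 7.78). The others had no reproducible peak of either group. Any pooled wild-type peak was found at 2 of the 7 and any pooled KQ peak at 3.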

How the data were processed

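PPARγ binding was measured by ChIP-seq in 2 libraries with wild-type and 2 with KQ receptor. Per the submitters' processing notes, Bowtie2, MACS2, bedtools, deepTools, HOMER and the hg38 build were used. For caller settings, use of input and the pooling step, nothing is stated in the labels. The deposited narrowPeak lists hold the authors' fold enrichment, a ratio to the caller's background, and −log10 of the p-value and of the q-value for each peak. One list was deposited for each library and one for the pooled libraries of each group. Read totals are not used here, so the number of peaks in a list also depends on depth and pull-down in ways that cannot be told apart from the group.

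Summits were assigned to RefSeq gene spans of GRCh38.p14, and the collagen genes were set against all protein-coding genes on chromosomes 1 to 22 and X. The rule for peaks described singly took reproducible KQ peaks, the 12 reproducible wild-type peaks of highest fold, reproducible peaks within 1 kb of a gene end, KQ peaks without wild-type overlap, the highest in each class and the 3 genes with most peaks. COL4A1, COL5A2 and COL21A1 tied for the last place among these genes. In the gene lists the rule took the highest fold and KQ genes. Other peaks and ITGA2 and DDR2 were chosen after their values were seen. Genes that act on collagen came from 4 lists (modification, processing and cross-linking, receptors, proteases). The members and lists were chosen with earlier results of these data known. Group means over libraries were compared by an exact two-sided permutation test, which for 2 against 2 cannot go below p = 0.333. Exact binomial and Poisson 95% intervals cover counting error only. Python 3.11.15, pandas 2.3.3, numpy 2.4.6, SciPy 1.17.1 and matplotlib 3.10.9 were used, and the assignment and overlap steps were tested on simulated data. Promoter sequences came from RefSeq, and peak sequences were not used here. Alternatives were a 5 kb window, the nearest coding gene, all pooled peaks, a 50% overlap, −log10 q of at least 5, each library left out, a shortened wild-type list and the replicate number as a block. The shortened list held the reproducible wild-type peaks of lowest q, as many as there were reproducible KQ peaks (354).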

Additional observations from a re-analysis of the deposited data

How the results depend on the processing

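The number of collagen genes with a reproducible wild-type peak (20) was 12 with a 5 kb window and 14 with the nearest coding gene. It was 15 at −log10 q of at least 5, 33 with all pooled peaks and 26 to 30 with a library left out. It was 1 with the reproducible wild-type list shortened by q to the number of reproducible KQ peaks (354). The number with a reproducible KQ peak (2) was 1 with a 5 kb window, 1 with the nearest coding gene, 8 with all pooled peaks, 0 without the COL4A1 and COL4A2 windows, and 3 to 5 with a library left out (5 without KQ library 2). The ratio of peaks per library (12.2) ran from 8.78 to 19.8 with a library left out. The difference in share (-0.11 points) turned to 0.054 at −log10 q of at least 5 (exact permutation p = 0.667) and ran from -0.27 to 0.052 with a library left out, positive without KQ library 1. It was -0.02 with a 5 kb window and -0.013 without the COL4A1 and COL4A2 windows. The KQ overlap of reproducible wild-type peaks (10.5%) was 0% (0 of 1 peak) with the shortened list, 17.4% at −log10 q of at least 5, 3.57% without the COL4A1 and COL4A2 windows and 5.26 to 10.9% with a library left out (5.26% without KQ library 2). The wild-type density (3.57 per Mb) was 10.4 with all pooled peaks, 2.16 at −log10 q of at least 5, 0.0939 with the shortened list and 5.16 to 6.85 with a wild-type library left out, where the remaining library alone defines recurrence (6.85 without library 2). The KQ density (0.0939 per Mb) was 1.03 with all pooled peaks, 0 without the COL4A1 and COL4A2 windows, 0.282 without KQ library 1 and 0.469 without KQ library 2. The log2 fold difference between wild-type peaks with and without a KQ overlap (0.54) was 0.38 with all pooled peaks, 0.37 at −log10 q of at least 5, -0.034 without the COL4A1 and COL4A2 windows and 0.28 to 0.93 with a library left out. The alternative without the COL4A1 and COL4A2 windows was chosen after seeing the data. Apart from settings that change the genes or peaks counted by construction, the cause was not tested. With the replicate number as a block, the ratio was 13.2 (exact sign-flip permutation p = 0.5, the smallest for 2 pairs). It is the geometric mean of the ratios of the 2 pairs, while 12.2 is a ratio of means, so the measures differ. The blocked share difference was -0.11 (exact sign-flip permutation p = 1). Deviations of same-numbered libraries had a correlation of -0.011 over coding genes. With KQ lists of 1263 and 1035 peaks most genes had no KQ peak, so this value cannot decide whether same-numbered libraries were handled together. The median summit rested on 8 to 17 tags in the single libraries, which limits the precision of a single fold.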
